A study of Arabidopsis thaliana with 24 samples.

Results

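The genes described here encode the proteins of the major light-harvesting complex of photosystem II (LHCII) in Arabidopsis thaliana leaves. They are the 5 LHCB1 and 3 LHCB2 genes, 8 of the 33610 genes in the deposited count table, and were picked out by locus identifier. All 8 passed the filter on low counts, which kept 17709 genes.

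LHCB1 and LHCB2 proteins bind chlorophyll a and chlorophyll b and assemble into the trimers that collect most of the light used by photosystem II. They are encoded in the nucleus, imported into the chloroplast and inserted into the thylakoid membrane with the help of a plastid signal recognition particle. A phosphorylated form of LHCB2 is known for docking LHCII to photosystem I during state transitions, while LHCB1 is known as the main trimer protein. Leaves are known to change the size of this antenna with light intensity and temperature, and LHCB transcripts are known to respond to light, to the circadian clock and to signals from the chloroplast.

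RNA was sequenced from leaves of the ecotypes Rodasen-47 from Sweden (SW) and Castelnuovo-12 from Italy (IT), each of them a single sub-line grown from seed. Each ecotype was grown in 4 regimes with a photoperiod of 9 h. High light and cool temperature (HLC) meant 1000 µmol photons per square metre per second with leaves at 14 °C by day and 12.5 °C by night. High light and warm temperature (HLW) meant 1000 µmol at 25 °C and 20 °C, low light and cool temperature (LLC) 100 µmol at 16 °C and 12.5 °C, and low light and warm temperature (LLW) 100 µmol at 25 °C and 20 °C. Each of the 8 groups had 3 libraries from the youngest fully developed leaf, frozen after the night of 15 h, so every level below is one at the end of darkness. The cool regimes of high and low light differed by leaf temperature in the light as well as by light.

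The 8 genes lie at 4 places in the genome of RefSeq's TAIR10.1, from which loci and sequences were read by locus identifier, because the count table holds no coordinates. Loci, sequences and motifs are thus those of this reference. The genomes of SW and IT were not examined and may differ from it. On chromosome 1, LHCB1.2 (AT1G29910, 10472280 to 10473502, minus strand), LHCB1.1 (AT1G29920, 10474656 to 10475969, minus) and LHCB1.3 (AT1G29930, 10477885 to 10479114, plus) are neighbours, with 1153 and 1915 bases between them. On chromosome 2, LHCB1.5 (AT2G34420, 14522524 to 14523568, minus) and LHCB1.4 (AT2G34430, 14524607 to 14525918, plus) are read away from each other, with 1038 bases between. LHCB2.2 (AT2G05070, 1799234 to 1800472, minus) and LHCB2.1 (AT2G05100, 1822990 to 1824480, minus) are also on chromosome 2, and LHCB2.3 (AT3G27690, 10255906 to 10257489, plus) is on chromosome 3. Each LHCB1 transcript has 1 exon, and each LHCB2 transcript has 2 exons and 1 intron.

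How alike the copies are bears on every value for a single copy. The same 60 bases of the aligned coding sequence are shown for each copy, chosen because LHCB1.1, LHCB1.2 and LHCB1.3 differ from each other most there. Capitals mark bases that differ from LHCB1.3.
LHCB1.1: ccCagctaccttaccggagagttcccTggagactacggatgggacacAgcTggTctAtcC
LHCB1.2: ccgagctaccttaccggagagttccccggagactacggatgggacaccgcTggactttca
LHCB1.3: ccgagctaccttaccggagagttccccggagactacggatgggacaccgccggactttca
LHCB1.4: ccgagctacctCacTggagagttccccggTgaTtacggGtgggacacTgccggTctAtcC
LHCB1.5: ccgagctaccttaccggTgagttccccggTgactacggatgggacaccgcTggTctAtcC
LHCB2.1: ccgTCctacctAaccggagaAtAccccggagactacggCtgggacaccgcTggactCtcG
LHCB2.2: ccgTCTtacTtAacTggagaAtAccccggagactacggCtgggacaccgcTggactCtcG
LHCB2.3: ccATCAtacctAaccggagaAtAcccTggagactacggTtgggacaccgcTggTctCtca
In this stretch LHCB1.2 differed from LHCB1.3 at 1 base, LHCB1.1 at 7 and LHCB2.3 at 12. Over the whole coding sequence, LHCB1.1 and LHCB1.2 were identical at 95.6% of bases and encode proteins with 0 residue differences. LHCB1.1 and LHCB1.2 were identical to LHCB1.3 at 96.1% and 96.4% of bases. LHCB1.4 stood further off, at 87% to 88.4% identity with those 3. LHCB2.1 and LHCB2.2 were 96.6% identical, while LHCB2.3 was 85.8% identical to LHCB2.1. LHCB1 and LHCB2 copies were 69.8% to 73.8% identical.

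Of all stretches of 50 bases in a transcript, 28.2% of those in LHCB2.2, 22.7% of those in LHCB2.1 and 20.5% of those in LHCB1.1 also occurred in another member, with 10.6% to 17.3% in the other LHCB1 copies. LHCB2.3 shared 0 such stretches. Reads of up to 50 bases from these stretches cannot be given to 1 copy, while longer reads can reach bases that differ. Of stretches of 100 bases, 1.51% to 4.44% were shared in the LHCB1 copies, 9.87% in LHCB2.1 and 12.4% in LHCB2.2. The sources used here do not say how the authors' counting handled shared reads. Values of single copies other than LHCB2.3 are uncertain in that respect, and sums over the LHCB1 and over the LHCB2 copies are less exposed to it. How differences of SW and IT from the reference bear on the counts of any copy, LHCB2.3 included, was not tested.

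The 250 bases before the transcript start are shown for the most abundant copy, LHCB1.3 (chr1:10477635-10477884, plus strand), for the copy whose level varied most between groups, LHCB1.4 (chr2:14524357-14524606, plus), and for LHCB2.3 (chr3:10255656-10255905, plus), whose reads are least shared. Capitals mark the motifs found.
LHCB1.3: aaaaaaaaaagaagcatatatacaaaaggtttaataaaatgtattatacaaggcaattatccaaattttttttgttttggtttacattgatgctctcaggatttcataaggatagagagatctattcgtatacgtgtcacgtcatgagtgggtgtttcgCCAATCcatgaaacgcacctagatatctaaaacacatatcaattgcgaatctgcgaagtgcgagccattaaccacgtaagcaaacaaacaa
LHCB1.4: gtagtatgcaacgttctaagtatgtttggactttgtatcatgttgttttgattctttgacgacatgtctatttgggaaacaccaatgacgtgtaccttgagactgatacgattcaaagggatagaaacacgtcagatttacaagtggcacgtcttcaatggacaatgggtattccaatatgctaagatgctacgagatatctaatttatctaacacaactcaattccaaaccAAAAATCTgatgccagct
LHCB2.3: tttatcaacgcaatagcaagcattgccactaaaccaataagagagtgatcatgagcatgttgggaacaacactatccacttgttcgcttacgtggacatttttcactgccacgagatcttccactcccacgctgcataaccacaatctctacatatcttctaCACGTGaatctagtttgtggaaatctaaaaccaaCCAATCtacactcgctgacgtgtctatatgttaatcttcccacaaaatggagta
Motifs were searched on both strands of all 27443 such windows of protein-coding genes. CCAATC, which holds a CCAAT box, occurred in 5 of the 8 members (LHCB1.3, LHCB1.5, LHCB2.1, LHCB2.2 and LHCB2.3), between 91 and 48 bases before the start, and in 10.2% of all windows. AAAAATCT, a binding site known for the clock protein CCA1 in an LHCB1 promoter, occurred in LHCB1.1 and LHCB1.4 and in 6.69% of all windows. The G-box CACGTG occurred in LHCB2.3 alone among the members and in 6.49% of windows, and the I-box core GATAAG in LHCB2.1 alone and in 12.3%. AACAATCT and the evening element AAAATATCT occurred in 0 members and in 1.83% and 2.36% of windows. A match is a run of letters, and none of these searches measured binding. None of the 6 motifs contains another.

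Some libraries stood apart or went against their labels. Total counts ran from 10967425 to 17467653 per library, of which plastid genes took 54.84% to 67.99%. Of 52 transcripts that were on (at least 20 counts) or off (at most 2) throughout each group, with IT_HLC replicate 3 set aside, 28 were on only in SW_LLC, SW_LLW, IT_HLC and IT_LLC and 17 only in SW_HLC, SW_HLW, IT_HLW and IT_LLW. No transcript, 0 of 52, followed the ecotype labels. IT_HLC replicate 3 carried both sets, at medians of 60% and 32.6% of their usual level. Every ecotype direction below is therefore that of the labels, and a difference between SW and IT in the response to HLC against LLW cannot be told apart from a difference between these transcript sets. Library codes also split the groups, letters for all HLC and LLW libraries and numbers for all HLW and LLC libraries, so that the interaction of light with temperature and the code series cannot be told apart, and it was not analysed here. IT_HLC replicate 2 had by far the lowest LHCB levels, given below with the groups, and counts that change without it or without replicate 3 are given beside the results.

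Levels are counts-per-million (CPM) on library sizes scaled by TMM, a normalization to the bulk of genes. Summed over the 8 genes, the level was highest in IT_LLW, with 22778, 28084 and 29325 CPM, and lowest in IT_HLC, with 10805, 2838 and 9095 CPM. IT_LLW libraries all lay above IT_HLC libraries, and IT_HLC replicate 2 lay far under its own group. Between them came, in falling order of means, SW_HLW at 23386 ± 3339 CPM (SD, n = 3), IT_HLW at 21573 ± 3904 CPM, IT_LLC at 17801 ± 813 CPM, SW_LLW at 14759 ± 1036 CPM, SW_LLC at 14320 ± 4147 CPM and SW_HLC at 13209 ± 481 CPM. Only 2 pairs of neighbours in that order, IT_LLC above SW_LLW and SW_HLC above IT_HLC, had libraries that did not overlap. The order of the first pair turned as a share of all counts, plastid genes included, at 1.64% ± 0.10 in IT_LLC and 1.72% ± 0.21 in SW_LLW (SD, n = 3). These 8 genes took 2.11% of the nuclear counts in IT_HLC and 6.33% in IT_LLW, the extremes of the group means. In bulk leaf discs, fewer mesophyll cells and less RNA per cell cannot be told apart.

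IT_HLC replicate 2 was also low outside the family. Its summed level of 6 mesophyll markers (RBCS1A, RCA, CA1, RBCS1B, RBCS2B, RBCS3B) was 5028 CPM, against 11691 and 9549 CPM in the other IT_HLC libraries and 7821 to 16559 CPM in the rest of the series, and none of the 6 was near 0. Its TMM factor was 1.405, the highest of all. SW_LLC replicate 3 was the lowest of its group in both, at 9753 CPM of the summed LHCB level and 7821 CPM of the mesophyll sum. The part of these values in the LHCB results was not tested.

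**Figure D1:**
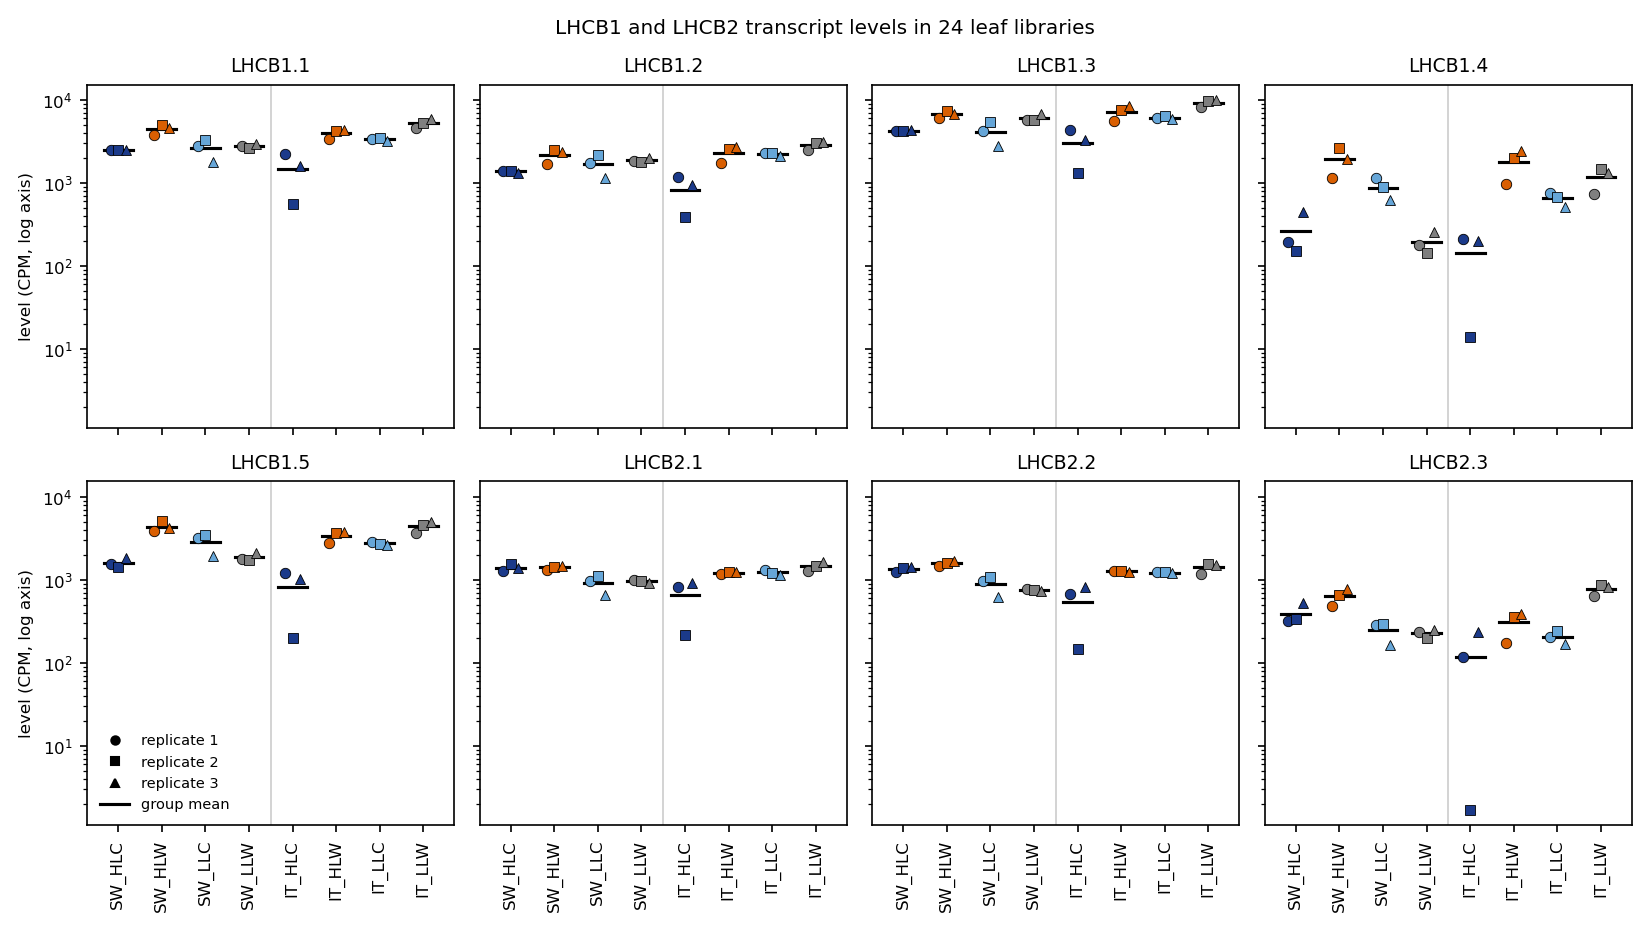
Level of each LHCB1 and LHCB2 gene in 24 libraries (CPM, log axis), 8 groups along the x axis, 3 points per group by replicate and a bar at the group mean. LHCB1.3 is highest in every group, LHCB1.4 falls into a low set of 3 groups and a high set of 5, and IT_HLC replicate 2 is the lowest library for every gene.

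Among the LHCB1 genes, LHCB1.3 was the most abundant transcript in all 8 groups, also per kilobase of transcript. It had 4291, 4260 and 4335 CPM in SW_HLC and 4371, 1308 and 3320 CPM in IT_HLC, against 5742, 5789 and 6725 CPM in SW_LLW and 8218, 9800 and 9983 CPM in IT_LLW. In both labels each HLC library lay under each LLW library. LHCB1.3 made up 33.9% (SW_LLC) to 49% (IT_HLC) of the LHCB1 sum, as group means. LHCB1.1 spanned 1477 ± 849 CPM in IT_HLC to 5296 ± 692 CPM in IT_LLW (SD, n = 3), and LHCB1.2, whose protein is identical, 835 ± 404 to 2873 ± 347 CPM in the same groups. LHCB1.5 had 810 ± 536 CPM in IT_HLC and 4400 ± 669 CPM in IT_LLW, with SW_HLW next at 4385 ± 676 CPM. IT_HLC was the lowest group and IT_LLW the highest for LHCB1.1, LHCB1.2, LHCB1.3 and LHCB1.5.

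LHCB1.4 ranged most widely of the 8, with group means 13.6-fold apart, or 9.98-fold without IT_HLC replicate 2. It had 196, 152 and 448 CPM in SW_HLC, 178, 144 and 256 CPM in SW_LLW and 212, 13.9 and 199 CPM in IT_HLC. These 9 libraries all lay under the other 15. The other groups averaged 654 ± 121 CPM in IT_LLC, 882 ± 262 CPM in SW_LLC, 1178 ± 395 CPM in IT_LLW, 1796 ± 759 CPM in IT_HLW and 1923 ± 768 CPM in SW_HLW (SD, n = 3). As a share of the LHCB1 sum, LHCB1.4 made up 1.49% in SW_LLW, 1.89% in IT_HLC and 2.6% in SW_HLC, as group means. It made up 4.3% in IT_LLC, 5.02% in IT_LLW, 7.3% in SW_LLC, 9.25% in IT_HLW and 9.48% in SW_HLW. By library these shares overlapped, as SW_HLC replicate 3, at 4.3%, lay above IT_LLC replicate 3 (3.62%) and IT_LLW replicate 1 (3.73%). The low groups, by level and mean share, were thus HLC under both labels and, among LLW groups, SW_LLW but not IT_LLW. Its neighbour LHCB1.5 was lowest in the same 3 groups, at 810 CPM in IT_HLC, 1605 CPM in SW_HLC and 1876 CPM in SW_LLW as means, against 2743 CPM or more in the other 5. Its share of the LHCB1 sum was also lowest there, at 11.9% to 15.9% against 18.1% to 23.5%. The range of LHCB1.5 was narrower. As group means, the ratio of LHCB1.4 to LHCB1.5 was 0.10 to 0.16 in these 3 groups. It was 0.24 to 0.31 in IT_LLC, IT_LLW and SW_LLC and 0.43 and 0.51 in SW_HLW and IT_HLW. By library the ratio overlapped too, at 0.25 in SW_HLC replicate 3 against 0.20 in IT_LLC replicate 3 and in IT_LLW replicate 1. The 3 low groups all had letter library codes, as had IT_LLW, and the HLW and LLC groups had number codes. The part of the code series in these levels, shares and ratios was not tested.

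The LHCB2 genes LHCB2.1 and LHCB2.2 varied least. LHCB2.1 means ran from 653 ± 381 CPM in IT_HLC to 1455 ± 183 CPM in IT_LLW, a 2.23-fold range that fell to 1.67-fold without IT_HLC replicate 2. LHCB2.2 ran from 546 ± 356 CPM in IT_HLC to 1586 ± 99.2 CPM in SW_HLW. LHCB2.3, the copy with no shared stretches, had the wider range of 6.6-fold, or 4.42-fold without IT_HLC replicate 2. It had 319, 334 and 521 CPM in SW_HLC and 117, 1.7 and 233 CPM in IT_HLC, against 235, 201 and 248 CPM in SW_LLW and 645, 861 and 815 CPM in IT_LLW. All SW_HLC libraries lay above the SW_LLW libraries, while all IT_HLC libraries lay under the IT_LLW libraries. The value of 1.7 CPM rests on 39 counts, the lowest count of any member in any library.

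The balance between LHCB1 and LHCB2 differed in 1 group. The summed LHCB1 level over the summed LHCB2 level was 3.5, 3.01 and 3.13 in SW_HLC, and group means were 5.38 to 6.68 in the other 7 groups. Of the 21 libraries outside SW_HLC, only IT_HLC replicate 3, at 3.59, came near, the library that carried both transcript sets. The other IT_HLC libraries had 5.75 and 6.81. This ratio is a description, with no test. Between near-identical copies, LHCB1.3 over LHCB1.1 was 2.18 ± 0.10 in SW_LLW and 2.1 ± 0.19 in IT_HLC, against 1.51 to 1.80 in the other groups, and LHCB2.1 over LHCB2.2 was 1.27 ± 0.04 and 1.28 ± 0.19 in these groups, against 0.89 to 1.03 (SD, n = 3). The part of reads exchanged between copies in these ratios was not tested.

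**Figure D2:**
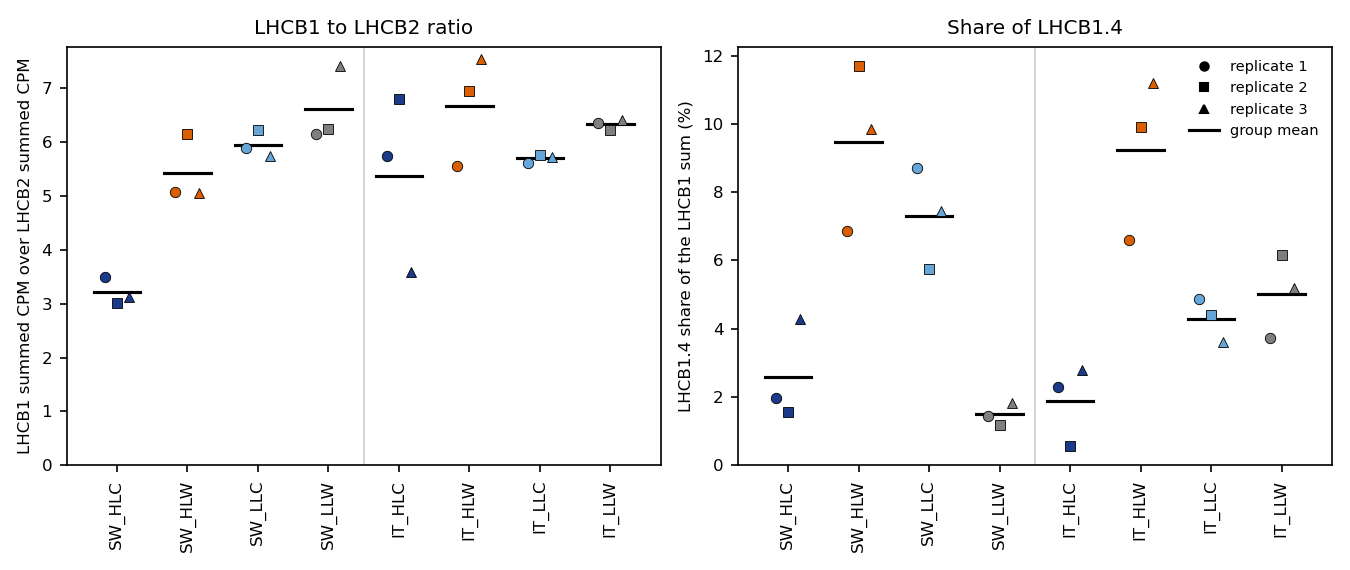
Left, summed LHCB1 CPM over summed LHCB2 CPM; right, LHCB1.4 as a percentage of the LHCB1 sum, both by library with 3 points per group and a bar at the group mean. SW_HLC has the lowest ratios, 3.01 to 3.5, and LHCB1.4 has its smallest mean shares in SW_HLC, SW_LLW and IT_HLC.

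The study grew both ecotypes in the extreme regimes HLC and LLW, and the comparison asks how the antenna genes differ between a cool leaf in strong light and a warm leaf in weak light. Under the IT label all 8 genes were lower in HLC, and under the SW label none of the 8 passed the test. In IT, edgeR's quasi-likelihood test gave LHCB1.4 at -3.06 ± 0.67 on the log2 scale (SE; adjusted p = 0.000804), LHCB2.3 at -2.72 ± 0.81 (adjusted p = 0.00782) and LHCB1.5 at -2.44 ± 0.40 (adjusted p = 3.75e-05). LHCB1.3, the most abundant copy, fell by 1.64 ± 0.30 (adjusted p = 0.000124), and LHCB2.1 changed least, at -1.16 ± 0.32 (adjusted p = 0.00438). The median of the 8 was -1.81, against 0.06 for all genes, and 54.7% of all genes tested were called in that comparison. All 8 remained called without IT_HLC replicate 2, with a median of -1.44, and without replicate 3, with a median of -1.90.

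In SW the 8 log2 fold changes ran from -0.50 to 0.85 with a median of 0.16, and 50.3% of all genes were called. LHCB2.2 came nearest to the threshold, with 1259, 1385 and 1427 CPM in SW_HLC against 773, 751 and 740 CPM in SW_LLW. Its libraries did not overlap, and its log2 fold change was 0.85 ± 0.35 (adjusted p = 0.0534). It was the 1 gene of 8 with an unadjusted p below 0.05, and DESeq2 called it (adjusted p = 0.0145). The wide spread within IT_HLC enters the shared estimate of error for SW as well. Without IT_HLC replicate 2 the same folds gave 3 genes higher (LHCB2.1, LHCB2.2 and LHCB2.3) and 1 lower (LHCB1.3), and without IT_HLC replicate 3 or SW_LLC replicate 3 there was 1 called. Of the log2 folds in SW, those of LHCB1.1, LHCB1.2, LHCB1.3 and LHCB1.5 were under 0, from -0.50 to -0.15, and those of LHCB1.4 and the 3 LHCB2 genes were above 0, from 0.46 to 0.85.

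The difference between the labels was itself tested. The step to HLC was higher in SW than in IT for all 8 genes, by 1.14 ± 0.42 for LHCB1.3 (adjusted p = 0.0375) to 3.52 ± 0.91 for LHCB1.4 (adjusted p = 0.00507), and 37.1% of all genes were called. All 8 remained called without IT_HLC replicate 2 (0.78 to 2.98) and without replicate 3 (1.22 to 4.49). DESeq2 did not call LHCB1.2 and LHCB1.3 in this contrast (adjusted p = 0.0533 and 0.139). Its groups are divided as the transcript sets are. As the mean of both labels, 5 genes were lower in HLC, the LHCB1 copies, at -1.33 to -1.0, and the LHCB2 genes were not called, at -0.97 to -0.27, with 55.8% of all genes called. Leaving out IT_HLC replicate 2 or replicate 3 gave 6.

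The same regimes were also compared within each transcript set, across the ecotype labels. In IT_HLC against SW_LLW, 4 of 8 genes were lower, and 41.3% of all genes were called. They were LHCB1.5 at -1.21 ± 0.39 (adjusted p = 0.0162), LHCB1.2 at -1.16 ± 0.29 (adjusted p = 0.00354), LHCB1.3 at -1.02 ± 0.30 (adjusted p = 0.00917) and LHCB1.1 at -0.92 ± 0.31 (adjusted p = 0.023). LHCB1.4, already low in both groups, had -0.45 ± 0.63, and the LHCB2 genes had -0.96 to -0.47. With IT_HLC replicate 2 left out, 3 genes were lower and the median was -0.45 instead of -0.94, without replicate 3 it was 5, and without SW_LLW replicate 3 it was 2.

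In SW_HLC against IT_LLW, all 5 LHCB1 genes were lower and none of the 3 LHCB2 genes passed the test, with 46.3% of all genes called. LHCB1.4 fell by 2.15 ± 0.65 (adjusted p = 0.0107), and the other LHCB1 copies stood at -1.45 to -1.06. LHCB2.1 had 1277, 1533 and 1382 CPM in SW_HLC against 1263, 1476 and 1627 CPM in IT_LLW, overlapping groups with a log2 fold of -0.06 ± 0.31 (adjusted p = 0.898). LHCB2.2 had the same fold, -0.06 ± 0.35. DESeq2 gave these folds the other sign, at 0.22 each, uncalled as well. LHCB2.3 had -0.98 ± 0.76 (adjusted p = 0.31). With IT_HLC replicate 2, a library outside this comparison, left out, LHCB2.3 was called lower at the same fold (adjusted p = 0.0128), so that 6 genes were lower. These comparisons reuse the libraries of the comparisons within labels, so they are no independent evidence.

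**Figure D3:**
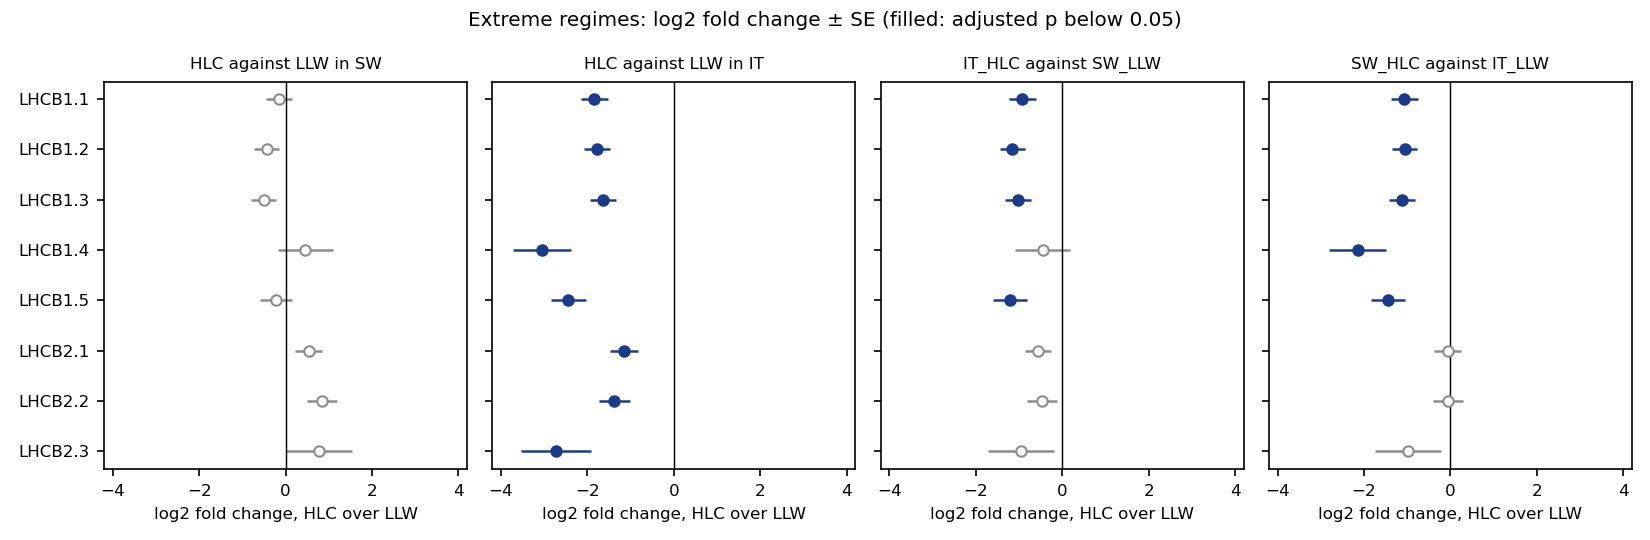
Log2 fold change of HLC over LLW for the 8 genes (points) with SE (lines) in 4 comparisons, from left within SW, within IT, IT_HLC against SW_LLW and SW_HLC against IT_LLW, filled where the adjusted p is below 0.05. All 8 are called lower within IT and none within SW, and in SW_HLC against IT_LLW the LHCB1 genes are called lower and the LHCB2 genes lie at -0.98 to -0.06.

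Light was compared over both temperatures. Under the SW label 2 genes were higher in high light, LHCB2.2 by 0.84 ± 0.25 (adjusted p = 0.00855) and LHCB2.1 by 0.58 ± 0.22 (adjusted p = 0.0339), with 50.8% of all genes called. Without IT_HLC replicate 2, 5 genes were higher there, and leaving out SW_HLC replicate 2, SW_HLW replicate 2 or 3, SW_LLC replicate 3 or SW_LLW replicate 2 or 3 left 1. All SW libraries in high light carried one transcript set and all SW libraries in low light the other. Under the IT label 6 genes were lower, with 33.9% of all genes called, among them LHCB1.5 at -1.06 ± 0.27 (adjusted p = 0.00518) and LHCB1.2 at -0.86 ± 0.21 (adjusted p = 0.00326). LHCB1.4 and LHCB2.3 were the ones not called in IT. LHCB2.3 was called lower there without IT_HLC replicate 2, at -0.78 (adjusted p = 0.0156), and without replicate 3, at -1.56 (adjusted p = 0.036), and DESeq2 called 3 genes in all. In IT each side of the light comparison held a group of each transcript set. The difference, SW minus IT, passed the test for 7 genes, all positive, at 0.80 to 2.15, with 37.9% of all genes called, and the exception was LHCB1.4. By DESeq2 it passed for 5 genes, and by edgeR, when any 1 IT_HLC library was left out, for all 8, LHCB1.4 included. It passed for 4 genes without SW_LLC replicate 3 or without IT_HLW replicate 1. As the mean over labels, only LHCB1.2 was called, at -0.45 ± 0.15 (adjusted p = 0.0145), with 48.3% of all genes called. All high light groups but IT_HLC carried one transcript set there, and all low light groups but IT_LLW the other. The part of the sets in that mean was not tested. Without IT_HLC replicate 1, 4 genes were called lower in that mean, without replicate 2, 2 were lower and 1 higher, without replicate 3, 2 were lower, and without SW_LLC replicate 3, 3 were called.

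Temperature was compared over both light intensities. In IT all 8 genes were lower in the cool regimes, with 49.1% of all genes called, from -2.26 ± 0.46 for LHCB1.4 (adjusted p = 0.000462) to -0.57 ± 0.22 for LHCB2.1 (adjusted p = 0.039). All 8 remained called without IT_HLC replicate 2 and without replicate 3, and DESeq2 called 7. All cool IT libraries carried one transcript set, with IT_HLC replicate 3 carrying both, and all warm IT libraries the other. In SW only LHCB1.3 was lower, at -0.60 ± 0.21 (adjusted p = 0.0266), with 40.2% of all genes called. It averaged 4295 ± 37.5 CPM in SW_HLC and 4176 ± 1335 CPM in SW_LLC, against 6773 ± 688 CPM in SW_HLW and 6086 ± 555 CPM in SW_LLW (SD, n = 3). With IT_HLC replicate 2 left out, 4 genes were lower in SW, the LHCB1 copies except LHCB1.4, and leaving out SW_HLW replicate 2, SW_LLC replicate 3 or SW_LLW replicate 3 left 0 of 8 called, as did DESeq2. In SW each side of the temperature comparison held a group of each transcript set.

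Averaged over labels, 6 genes were lower in the cool, the 5 LHCB1 copies and LHCB2.3, at -1.30 to -0.66, with 56.4% of all genes called. Without IT_HLC replicate 2 or replicate 3, all 8 were, and DESeq2 called 5. All cool groups but SW_HLC carried one transcript set, with IT_HLC replicate 3 carrying both, and all warm groups but SW_LLW the other. The part of the sets in that average was not tested. The difference between labels in the temperature step was called for LHCB1.4 alone, at 1.93 ± 0.63 (adjusted p = 0.0304), with 25.1% of all genes called, for 4 genes without IT_HLC replicate 2, for 3 without replicate 1 and for 2 without replicate 3. It was called for 0 genes when any 1 of SW_HLC replicate 3, SW_HLW replicate 1, SW_LLC replicate 1, SW_LLW replicate 2, IT_HLW replicate 3, IT_LLC replicate 3 or IT_LLW replicate 2 was left out. Every step of light alone or temperature alone sets one series of library codes against the other. These comparisons over both levels of the other factor are balanced over the code series, but not all of them over the transcript sets.

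**Figure D4:**
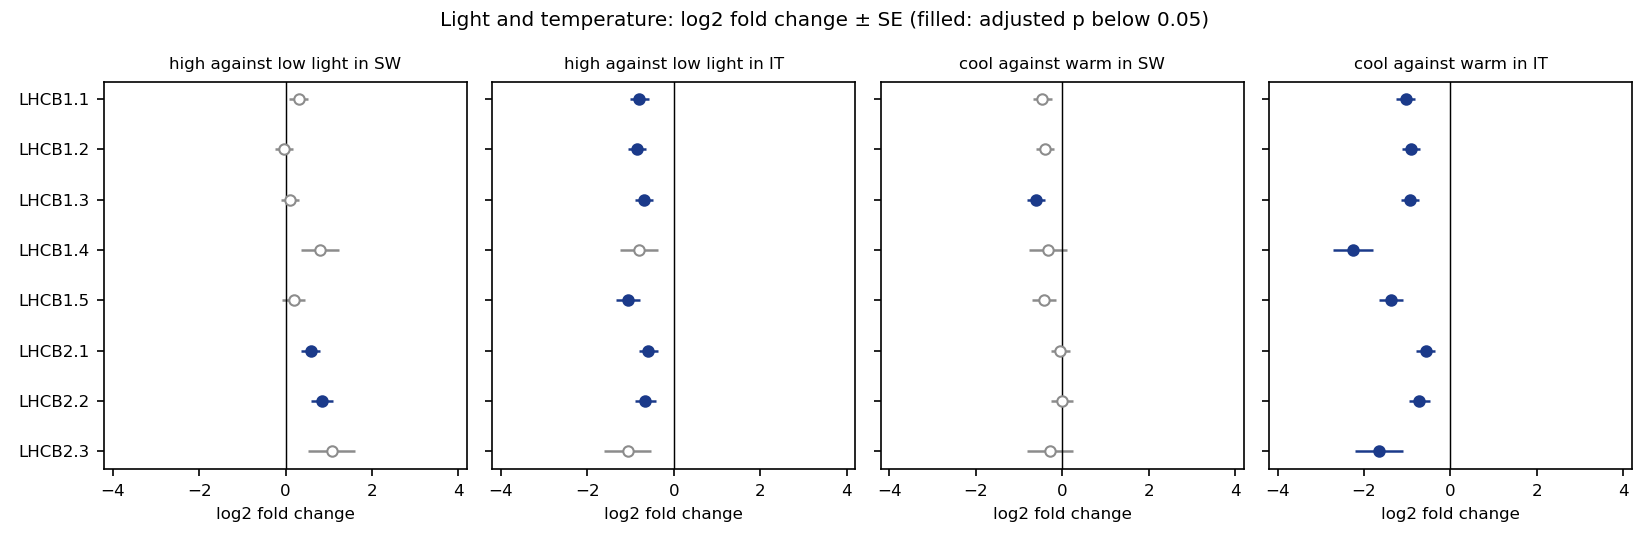
Log2 fold change with SE of high over low light (left, SW then IT) and of cool over warm (right, SW then IT) for the 8 genes, filled where the adjusted p is below 0.05. Under the IT label 6 genes are called lower in high light and 8 in the cool, and under the SW label 2 are called higher in high light and 1 lower in the cool.

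SW was set against IT within each regime. In LLW and HLC the labels carried different transcript sets, with IT_HLC replicate 3 carrying both. In LLC and HLW both labels carried the same set. A label difference in LLW or HLC therefore cannot be told apart from a difference between the transcript sets. In LLW, 3 LHCB1 genes were lower under the SW label, with 25.5% of all genes called. LHCB1.4 had 178, 144 and 256 CPM in SW_LLW against 734, 1487 and 1314 CPM in IT_LLW. These groups did not overlap for it or for any other member. LHCB1.4 had a log2 fold change of -2.61 ± 0.66 (adjusted p = 0.00647). LHCB1.5 followed at -1.23 ± 0.39 (adjusted p = 0.0233) and LHCB1.1 at -0.92 ± 0.31 (adjusted p = 0.0337). Without IT_HLC replicate 2, a library outside this comparison, all 8 were called lower with the same median of -0.92. Without IT_HLC replicate 3, 4 were. Leaving out SW_LLW replicate 1 or 2 or IT_LLW replicate 2 or 3 left 1 called, and DESeq2 called 2.

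In HLC, 2 genes were higher under the SW label, with 24.4% of all genes called. LHCB2.1 had 1277, 1533 and 1382 CPM in SW_HLC against 817, 217 and 924 CPM in IT_HLC, with a log2 fold change of 1.1 ± 0.32 (adjusted p = 0.0159). LHCB2.2 had 1.31 ± 0.36 (adjusted p = 0.0114), and neither gene's libraries overlapped between the groups. Those of LHCB1.1, LHCB1.2, LHCB1.5 and LHCB2.3, which were not called, did not overlap either. The share of all genes without overlap was not counted. Leaving out IT_HLC replicate 1 gave 6 genes, replicate 2 gave 3 and replicate 3 gave 4, while leaving out SW_HLC replicate 2 left 1, and DESeq2 called 3. By edgeR no gene of the 8, or 0, was called in LLC, with 42.8% of all genes called, in HLW, with 24.4%, or in the mean of the 4 regimes, with 24.2%. The 8 log2 folds in that mean ran from -0.29 to 0.33. In these 3 comparisons 0 genes had an unadjusted p below 0.05, and DESeq2 called 0. Without IT_HLC replicate 2, 3 genes were lower in LLC, 1 was higher in HLW and 1 was lower in the mean.

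Genes around LHCII were taken from lists of the pathway, and the counts are set beside the share of all genes called in the same comparison. Of 13 other antenna genes, 9 were lower and 1 was higher in HLC under the IT label, with a median of -1.71, where 54.7% of all genes were called. Under the SW label 3 were higher and 0 lower, a smaller share than the 50.3% of all genes, with a median of 0.11. The step was higher in SW than in IT for 12 of the 13 when the difference was tested, with a median of 1.62, against 37.1% of all genes called at a median of -0.03. That difference was 2.44 ± 0.55 for LHCA1, a photosystem I antenna protein (adjusted p = 0.00167), 2.19 ± 0.50 for LHCB4.2 (adjusted p = 0.00173) and 1.78 ± 0.41 for LHCB4.1 (adjusted p = 0.00225), which encode forms of the minor antenna CP29. It was again 12 of 13 without IT_HLC replicate 2 and without replicate 3.

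In IT_HLC against SW_LLW, where 41.3% of all genes were called at a median of 0.00, 8 of the 13 antenna genes were lower and 2 higher, or 5 and 2 without IT_HLC replicate 2 and 6 and 1 without replicate 3. The higher ones were LHCB4.3, a divergent CP29 gene, at 2.83 ± 0.40 (adjusted p = 1.36e-05) and the photosystem I antenna gene LHCA5 at 0.44 ± 0.17 (adjusted p = 0.0487), which was not called without replicate 3. Among the lower ones, LHCA3 had -1.07 ± 0.27 and LHCA4 -1.32 ± 0.35.

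Among 5 genes of LHCII import and insertion, 2 were higher in IT_HLC than in SW_LLW, a share near the 41.3% of all genes, with a median of 0.09. They were cpSRP54 at 0.76 ± 0.17 (adjusted p = 0.00131) and cpFtsY, its receptor, at 0.59 ± 0.16 (adjusted p = 0.00501). LTD, which hands antenna proteins to the signal recognition particle, was the 1 gene called in the SW minus IT difference, at 0.97 ± 0.25 (adjusted p = 0.00477). The import counts were the same without IT_HLC replicate 2 and without replicate 3.

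Of 13 genes of chlorophyll synthesis, 4 were higher and 2 lower in IT_HLC against SW_LLW, also near the share of all genes, with a median of 0.10. Without IT_HLC replicate 2 it was 5 higher and 1 lower, and without replicate 3 it was 2 and 2. PORB, which reduces protochlorophyllide in the light, had 2.59 ± 0.26 (adjusted p = 2.34e-07), CHLI1, a subunit of magnesium chelatase, 0.77 ± 0.23 (adjusted p = 0.0113), and CAO, which makes chlorophyll b, -0.73 ± 0.20 (adjusted p = 0.00616), each called as well with either library left out. In the SW minus IT difference 6 were higher and 1 lower, against 37.1% of all genes, or 4 and 1 without IT_HLC replicate 2 and 7 and 1 without replicate 3. Among them CAO had 1.45 ± 0.28, PORB 1.80 ± 0.35 and CHLG, chlorophyll synthase, -1.42 ± 0.28.

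Of 5 genes for chlorophyll b reduction and chlorophyll breakdown, 2 were higher in IT_HLC than in SW_LLW and 0 lower, near the share of all genes, with a median of 0.41, and the counts were the same with IT_HLC replicate 2 or replicate 3 left out. HCAR, a reductase on the way from chlorophyll b to chlorophyll a, had 2.79 ± 0.14 (adjusted p = 1.25e-10) and NYC1, a chlorophyll b reductase known for LHCII degradation, 2.00 ± 0.16 (adjusted p = 1.27e-08). NYC1 was also the 1 gene called in the SW minus IT difference, at -0.81 ± 0.22 (adjusted p = 0.00636). TAP38, the phosphatase that acts on LHCII, was 0.43 ± 0.12 higher in IT_HLC than in SW_LLW (adjusted p = 0.00653), and STN7, the kinase, had 0.11 ± 0.15. Of 3 transcriptional regulators, GLK1 at -0.88 ± 0.19 (adjusted p = 0.00103) and GLK2 at -0.83 ± 0.26 (adjusted p = 0.016) were lower in that comparison, where 41.3% of all genes were called. Both factors are known to activate LHCB genes. GLK2 was not called there without IT_HLC replicate 2, at -0.50. Its SW minus IT difference of -1.01 ± 0.37 (adjusted p = 0.0375) was not called without replicate 3, where GLK1 was called higher at 0.73 (adjusted p = 0.0411). In SW_HLC against IT_LLW, where 46.3% of all genes were called, 0 of the 3 regulators were, with a median of 0.34. In HLC against LLW, 1 was lower under the IT label (median -0.14) and 1 under the SW label (median -0.23). Of all genes, 54.7% and 50.3% were called there. Their part in the LHCB levels was not tested.

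The 5 genes whose levels most resembled the summed level of the 8, by Pearson r of log2 CPM over 24 libraries among 1800 well-expressed genes, were LHCA4 at 0.98, PSAE-2 at 0.98, LHCB5 at 0.97, LHCB4.2 at 0.97 and PSAN at 0.97. LHCA4, LHCB5 and LHCB4.2 encode antenna proteins, and PSAE-2 and PSAN encode subunits of photosystem I. Without IT_HLC replicate 2 the values were 0.95, 0.97, 0.94, 0.92 and 0.92 in the same order. Their ranks among the 1800 genes were then 2, 1, 3, 7 and 9, so LHCB4.2 and PSAN were no longer among the first 5. The libraries share their depth and normalization across these genes, so the values are descriptions.

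Markers of other leaf cell types were measured in the same libraries. Of all genes, 54.7% were called in HLC against LLW under the IT label, 50.3% under the SW label and 37.1% in the SW minus IT difference. Of 6 mesophyll markers, 4 were lower in HLC under the IT label and 0 were called under the SW label, and 2 were higher in the SW minus IT difference, or 1 without IT_HLC replicate 2. All 3 phloem markers were lower in HLC under the IT label (SEOR1, SUC2, APL), with summed levels of 39.4 to 53.3 CPM in IT_HLC against 96.1 to 154 CPM in IT_LLW. Under the SW label they summed to 96.6 to 132 CPM in SW_HLC against 75.5 to 83 CPM in SW_LLW, with SUC2 called higher and APL lower. All 3 phloem markers were higher in the SW minus IT difference, with a median of 1.89, the direction of the 8 LHCB genes, and all 3 were so without IT_HLC replicate 2 and without replicate 3. In that difference 0 of 3 xylem, 1 of 3 guard cell and 2 of the 3 epidermis markers tested were called, each of these higher. The 2 of 6 mesophyll and 1 of 3 guard cell markers were near the 37.1% of all genes. The 3 xylem markers (XCP1, XCP2, IRX3) summed to 0.86 to 1.91 CPM in SW_HLC and 0.698 to 1.23 CPM in IT_HLC, against 2.16 to 6 CPM in SW_LLW and 4.96 to 6.49 CPM in IT_LLW. The 3 guard cell markers summed to 4.58 to 13 CPM and the 4 epidermis markers to 66.9 to 271 CPM over all libraries, with PDF1 at or under 3 counts in each. Their part in the LHCB differences was not tested.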

How the data were processed

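Leaf RNA of 24 libraries was analysed as 8 groups of 3. The deposited values are raw counts per gene, 1 column per library; the lowest value is 1 and no value is 0, and the sources used here do not say whether an offset was added or whether counting used strand. TAIR10 is the build, and DESeq2, HISAT and StringTie are the tools, listed per the submitters' processing notes, with no versions or roles. Both ecotypes share 1 table of genes. Libraries were rRNA-depleted TruSeq, per the labels' protocols.

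Raw deposited counts went into edgeR 4.0.16 (R 4.3.3, limma 3.58.1): filterByExpr (minimum count 10, minimum total 15), TMM, glmQLFit with robust estimation and glmQLFTest on 8 groups and all 24 libraries, Benjamini-Hochberg over the 17709 genes tested in each of 19 comparisons, called at an adjusted p below 0.05. The fit was tested on simulated data. SE is the size of the log2 fold change over the root of its F value. Sums over members, shares and ratios were not tested. Replicates are called biological in the labels, which do not say whether they were separate plants or runs, so the p-values cover only spread among these libraries, which may be technical. SDs and SEs hold that spread. Replicate numbers did not pair libraries. Sequences and loci came from RefSeq (TAIR10.1), aligned with MAFFT 7.526, and symbols matched 28932 identifiers and not 4678. Sums, shares, ratios and figures used Python 3.11.15 with pandas 2.3.3, numpy 2.4.6 and matplotlib 3.10.9.

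The 8 members and the other lists were chosen with earlier results of these data known. All members are named. From other lists, up to 3 genes of smallest adjusted p are named in the SW minus IT difference and in IT_HLC against SW_LLW. LHCA5 is named in addition, as the other antenna gene called higher in IT_HLC against SW_LLW. Alternatives were RLE size factors, no filter beyond a total above 24, 1 subtracted from every value, nuclear genes alone, DESeq2 1.42.0, a replicate block and each library left out. Plain CPM for sums, and leaving IT_HLC libraries out for other lists, were added after the data were seen.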

Additional observations from a re-analysis of the deposited data

Results flagged for a closer look

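The difference between the labels (SW minus IT) passed edgeR's quasi-likelihood test, as an interaction, for 16 pairs of gene and step, on the log2 scale with SE. For HLC against LLW it was 1.69 ± 0.44 for LHCB1.1 (adjusted p = 0.005), 1.34 ± 0.41 for LHCB1.2 (0.0148), 1.14 ± 0.42 for LHCB1.3 (0.0375), 3.52 ± 0.91 for LHCB1.4 (0.00507) and 2.22 ± 0.54 for LHCB1.5 (0.00334). Among LHCB2 genes it was 1.70 ± 0.45 for LHCB2.1 (adjusted p = 0.00544), 2.22 ± 0.50 for LHCB2.2 (0.00179) and 3.5 ± 1.1 for LHCB2.3 (0.0176).

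For high against low light the difference was 1.11 ± 0.31 for LHCB1.1 (adjusted p = 0.00833), 0.82 ± 0.29 for LHCB1.2 (0.0313), 0.80 ± 0.29 for LHCB1.3 (0.0382), 1.25 ± 0.38 for LHCB1.5 (0.014), 1.17 ± 0.31 for LHCB2.1 (0.00649), 1.5 ± 0.35 for LHCB2.2 (0.00267) and 2.15 ± 0.76 for LHCB2.3 (0.0336). For cool against warm it was 1.93 ± 0.63 for LHCB1.4 (adjusted p = 0.0304). The labels go against the transcript sets carried by the libraries, and IT_HLC replicate 3 carries both sets. The light and temperature differences share libraries with the difference for HLC against LLW, which is their sum.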

How the results depend on the processing

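Of 114 counts of called genes under the alternatives other than leaving a library out, 108 stayed within 1.5 times. Exceptions were HLC against LLW in SW, with 1 gene under RLE size factors and 1 under DESeq2 instead of 0, and, under DESeq2, 3 instead of 6 for light in IT, 1 instead of 2 for light in SW, 0 instead of 1 for temperature in SW and 2 instead of 1 for the label difference in temperature. DESeq2 gave LHCB2.1 and LHCB2.2 a log2 fold of 0.22 each in SW_HLC against IT_LLW. With plain CPM the log2 ratio of the LHCB2 sums there was 0.14 instead of -0.21.

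Leaving out each library in turn, the number of genes called ran from 0 to 4 for HLC against LLW in SW, 4 to 6 for its mean, 7 to 8 for its label difference, 2 to 5 for IT_HLC against SW_LLW and 4 to 6 for SW_HLC against IT_LLW. It ran from 4 to 7 for light in IT, 1 to 5 in SW, 1 to 4 in the mean and 4 to 8 for the label difference, and for temperature from 7 to 8, 0 to 4, 5 to 8 and 0 to 4. For SW against IT it ran from 0 to 1 in the mean and in HLW, 1 to 8 in LLW, 0 to 3 in LLC and 1 to 6 in HLC. The log2 fold of LHCB1.4 ran from -0.14 to 0.75 in HLC against LLW in SW and from -0.85 to 0.10 in IT_HLC against SW_LLW. In SW_HLC against IT_LLW LHCB2.1 ran from -0.15 to 0.03 and LHCB2.2 from -0.17 to 0.00. The cause was not tested.

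Same-numbered libraries did not deviate together (median r -0.00 over 84 pairs, 11 above 0.1, and 7 of 24 libraries closest to their own number). With the replicate block, 4 genes were called for light in IT instead of 6, 6 instead of 7 for the label difference in light and 7 instead of 8 for that in HLC against LLW. The lowest counts were those of IT_HLC replicate 2, with 318 for LHCB1.4 and 39 for LHCB2.3. In every other library LHCB1.4 had at least 2263 counts and LHCB2.3 at least 1609. Every other member had at least 3329 counts in every library.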
